A study of Mus musculus with 32 samples.

Results

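The genes of 2 related signalling pathways, TGF-beta (for transforming growth factor) and BMP (for bone morphogenetic protein), were taken as a module of 48 and their expression was followed in muscle of mice with an inducible DUX4 gene. The genes were taken by name, as Ensembl rows matched to symbols, and all 48 were found among the 43035 genes of the tables. They comprised 12 ligands, 5 latent binding proteins or proteases, 10 receptors or co-receptors, 5 secreted antagonists, 6 signalling Smads, 5 intracellular inhibitors and 5 target genes. DUX4 is a transcription factor that causes facioscapulohumeral muscular dystrophy when muscle expresses it. The 32 RNA-seq libraries formed 8 groups. In whole muscle these were inducible DUX4 at 2 weeks (IDUX.2Weeks, n = 5), wild type (WT) at 2 weeks (WT.2Weeks, n = 5), inducible DUX4 at 16 weeks (IDUX.16Weeks, n = 4) and WT at 16 weeks (WT.16Weeks, n = 4). In sorted cells they were CD31+ endothelial cells with DUX4 (CD31DUX, n = 4) or WT (CD31WT, n = 3), and PDGFRa+ fibro-adipogenic progenitors (FAPs) with DUX4 (PDGDUX, n = 4) or WT (PDGWT, n = 3). Every mouse, WT included, was fed chow with doxycycline, the drug that switches such transgenes on. Some limits of the model follow from what the labels leave out, namely the promoter or cell type that drives the transgene, the muscles taken as whole muscle, the age and sex of the mice, the time point of the sorted cells and whether each library came from 1 animal. The human DUX4 transgene has no row in the tables and was not analysed here.

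TGF-beta and BMP ligands are secreted dimers that bind pairs of serine/threonine kinase receptors. TGF-beta is stored in the matrix in a latent form through latent TGF-beta binding proteins, and its receptors pass the signal to Smad2 and Smad3, whereas BMP receptors pass theirs to Smad1, Smad5 and Smad9, and both use Smad4. In skeletal muscle TGF-beta is known for driving fibrosis and activating FAPs, the connective tissue cells of muscle, and BMP signalling for helping to maintain muscle mass.

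Total counts ran from 6.07 to 20.7 M per library, so that 3 counts, the limit that a count of 0 allows, stood for 0.494 CPM in the shallowest library and 0.145 CPM in the deepest, counting error only. Levels are given as CPM, counts scaled to the library total, after trimmed-mean (TMM) scaling, computed apart for whole muscle and for sorted cells. A gene was called when its edgeR quasi-likelihood p, adjusted over all genes tested in that fit, was under 0.05. Since no label says that libraries came from separate animals, these p-values measure only the spread between libraries. The summed level of 8 endothelial markers was 3052 to 4858 CPM in the CD31+ libraries and 95.6 to 269 CPM in the PDGFRa+ libraries. Of 8 FAP markers it was 32381 to 42102 CPM in PDGFRa+ libraries, 7454 to 9477 CPM in CD31DUX and 3254 to 4956 CPM in CD31WT, so FAP transcripts were also present in the CD31+ libraries. The 2-week libraries of both genotypes formed 2 sets, in which the homeobox gene Hoxd8 stood at 51.2 to 73.4 CPM (replicates 1 to 3) and 4.49 to 5.56 CPM (replicates 4 and 5). By its FAP markers, WT.16Weeks replicate 1 stood apart at 118 CPM in sum, against 330 to 428 CPM in the other WT.16Weeks libraries. That library was also the lowest of its group for endothelial (172 CPM) and mural (423 CPM) markers. For macrophage (57.2 CPM) and satellite cell (149 CPM) markers it was the highest. Exons of 13 members overlap a gene on the other strand and those of 3 a gene on the same strand, and strand is not stated for the counting, so reads of such pairs cannot be told apart.

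The levels of the members differed between the tissue and the sorted cells, as the map of mean levels per kilobase of exon shows. In PDGWT FAPs the highest members per length were the target Id3 (710 CPM per kb), the latent binding protein gene Ltbp4 (514), Tgfbi (216), which encodes a matrix protein induced by TGF-beta, and the ligand gene Bmp2 (89.1). In CD31WT endothelial cells they were Id3 (576 CPM per kb), Id1 (450), Ltbp4 (220) and Id2 (97.6). In WT.16Weeks muscle no member passed 18.5 CPM per kb, the level of both Smad3 and Smad4, and in WT.2Weeks muscle Smad3 was highest at 23.5 CPM per kb. Levels in whole muscle and in sorted cells came from different library kits, so they were set side by side and not tested. The BMP antagonist gene Grem1 was near or at 0 throughout, with at most 1.08 CPM in any library, and was not tested in either fit. Gdf5, a ligand gene of joint and bone development, had no count in any PDGFRa+ or CD31WT library and was not tested in sorted cells. That left 47 members tested in muscle and 46 in sorted cells.

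**Figure D1:**
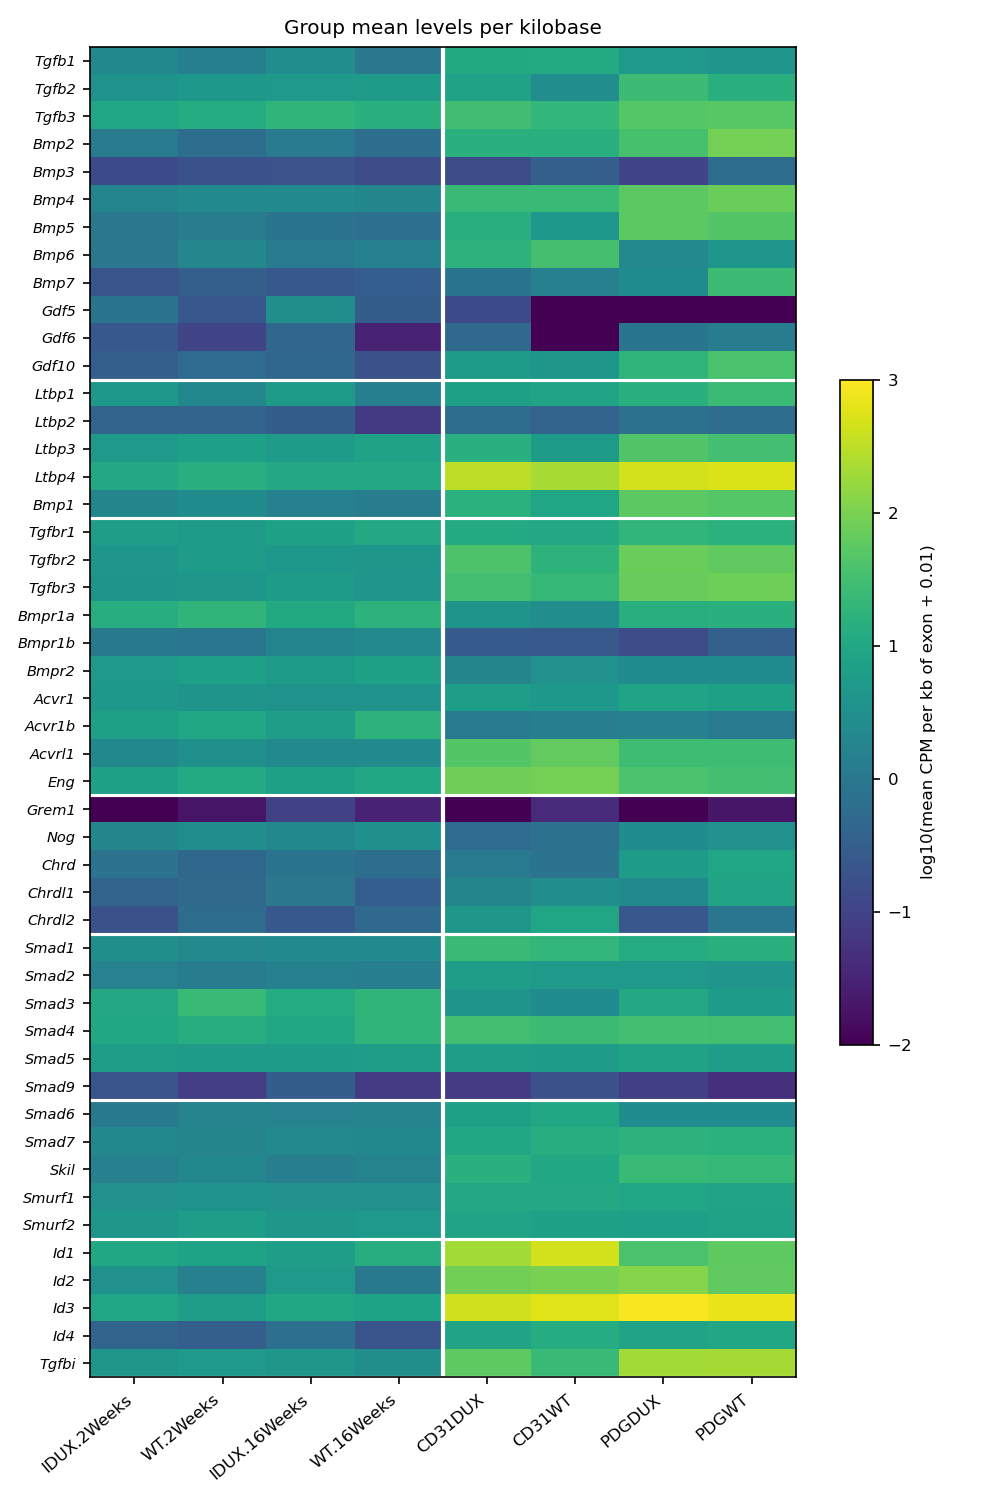
Mean level of each of the 48 members (rows, by class) in each of the 8 groups (columns), as the log10 of mean CPM per kb of exon plus 0.01, with brighter colours for higher levels. Id3 is the brightest row in the 4 sorted groups, and Grem1 is dark in all 8.

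In WT cells, where the members are expressed was asked by comparing FAPs with endothelial cells. Of 46 members tested, 21 were higher and 8 lower in PDGWT than in CD31WT. That is 63.0%, beside 31.1% of all 17008 genes tested (16.7% higher, 14.5% lower). Ligands were mostly higher in FAPs (8 higher, 2 lower, 1 not called of 11), and of the latent binding proteins and proteases 4 of 5 were higher. Among the largest rises with at least 5 CPM in the higher group was Bmp7, at 105 ± 28.1 CPM in PDGWT and 5.97 ± 0.794 CPM in CD31WT (SD, n = 3 each; log2 4.14 ± 0.68, SE; adjusted p = 0.00032). The others were the antagonist gene Chrd (57.2 ± 14.3 and 4.90 ± 2.97 CPM, log2 3.54 ± 0.50), Bmp5 (184 ± 18.3 and 18.6 ± 6.16 CPM, log2 3.30 ± 0.24) and Tgfbi (815 ± 188 and 88.8 ± 29.5 CPM, log2 3.20 ± 0.24), with PDGWT given first and adjusted p of at most 5.02e-05. The largest falls in FAPs were those of the antagonist gene Chrdl2 (3.35 ± 0.166 CPM in PDGWT, 33.4 ± 5.91 in CD31WT, log2 −3.32 ± 0.47) and of Bmp6 (16.2 ± 4.58 and 131 ± 16.4 CPM, log2 −3.01 ± 0.34). Id1, a target of BMP signalling that blocks the binding of other transcription factors to DNA, was also lower in FAPs (66.2 ± 13.2 and 522 ± 82.6 CPM, log2 −2.98 ± 0.20). So was the inhibitory Smad gene Smad6 (8.81 ± 2.88 and 31.5 ± 6.42 CPM, log2 −1.84 ± 0.27), and the adjusted p of these 4 was at most 6.14e-05. The endothelial receptor genes Acvrl1 and Eng had log2 differences of −1.18 ± 0.13 and −1.53 ± 0.15. Marker sums of other cells were also higher in CD31WT than in PDGWT. With CD31WT first, they were 1101 to 1454 and 419 to 449 CPM for mural cells and 319 to 441 and 110 to 133 CPM for satellite cells. For tenocytes they were 1090 to 1242 and 716 to 1060 CPM, and for Schwann cells 145 to 218 and 29.5 to 62 CPM. For macrophages they were 88.5 to 322 and 13.2 to 88 CPM, and for myofibres 87.2 to 221 and 18.8 to 63.1 CPM. Some single markers went the other way, among them Pdgfrb, Cspg4, Thbs4 and, though not called, S100b. The part of these other cells in the members higher in CD31WT was not tested.

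**Figure D2:**
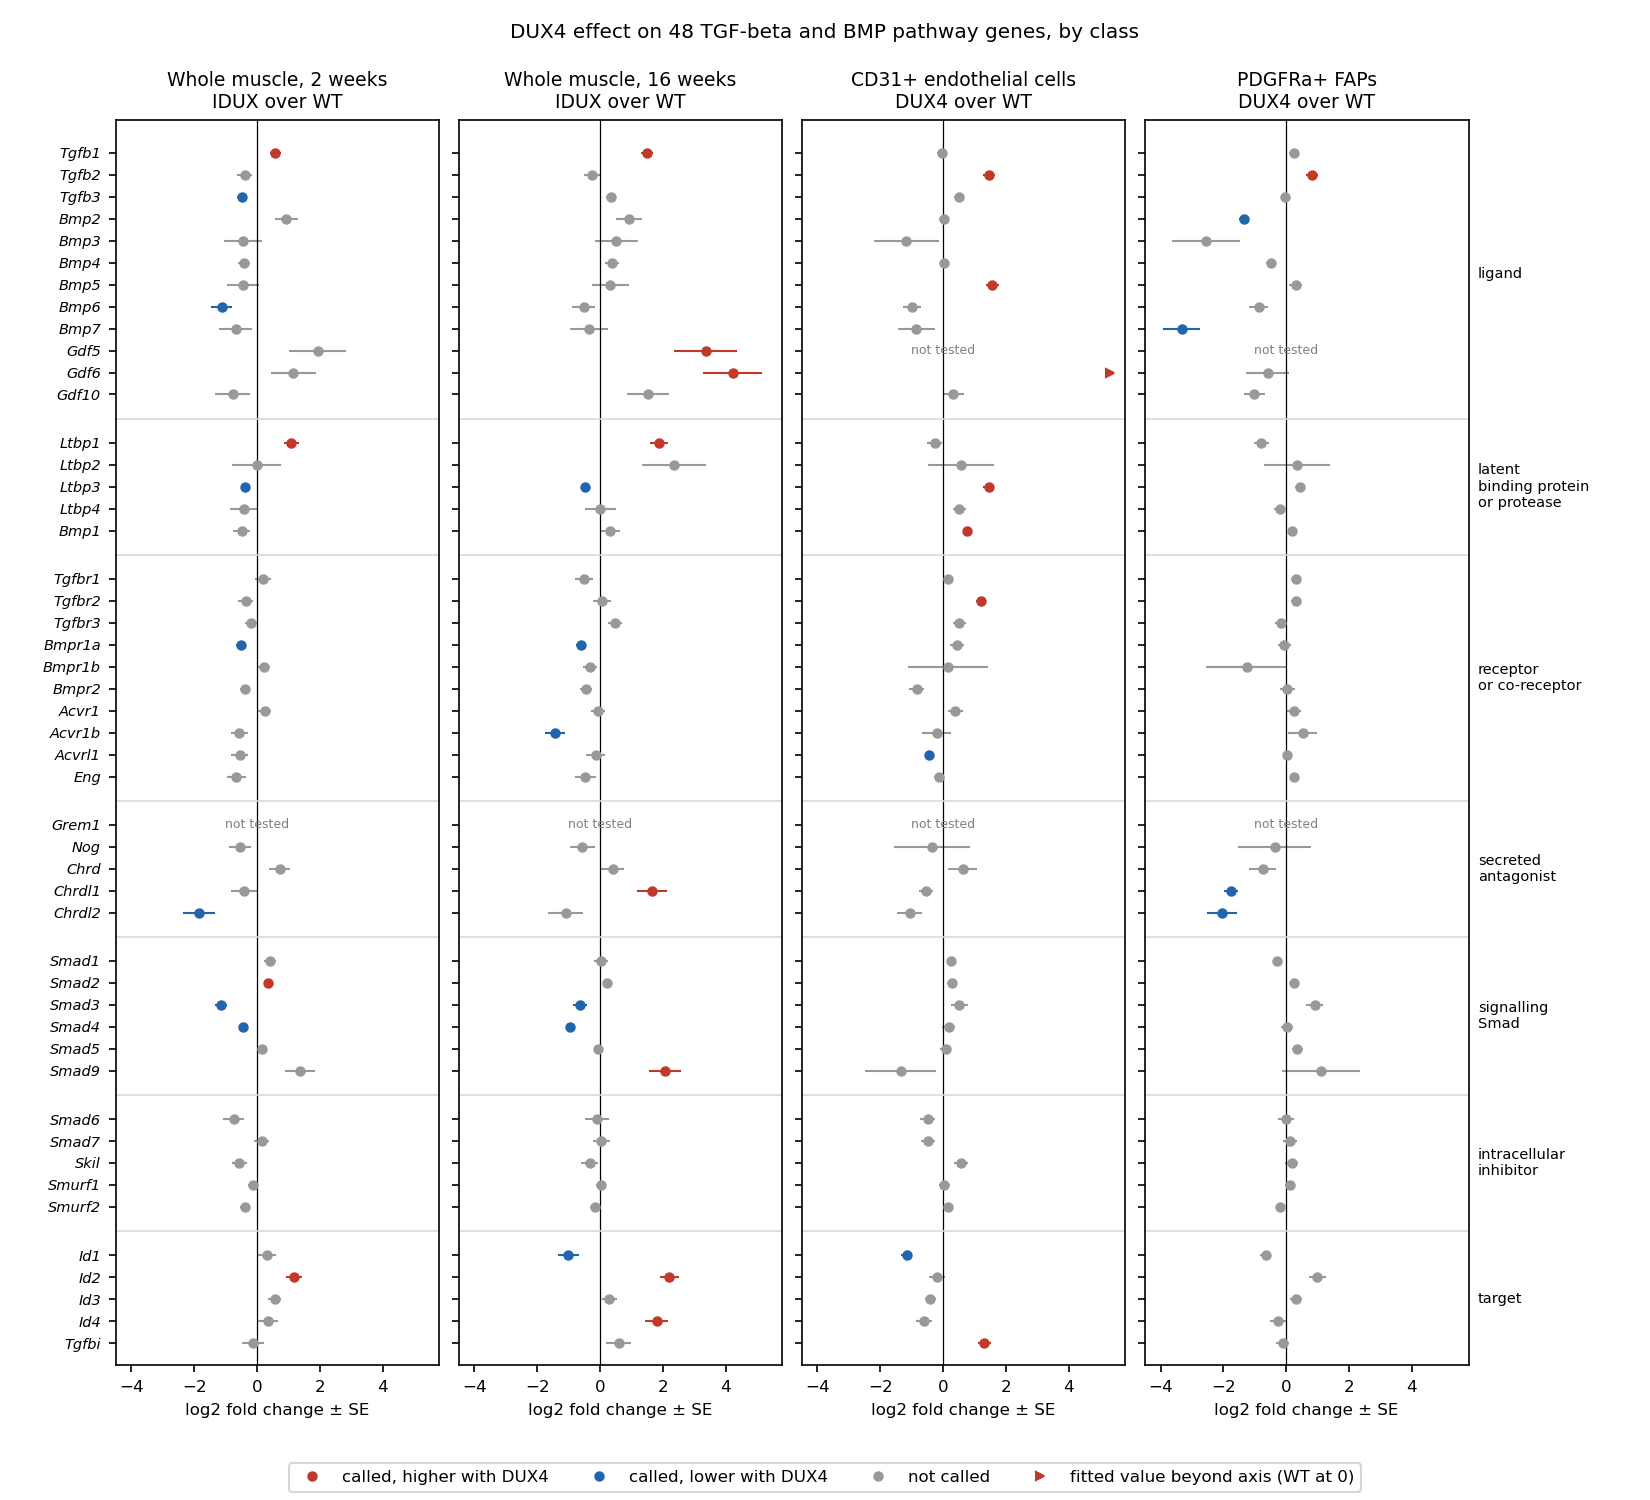
Log2 fold change (horizontal axis, ± SE) with DUX4 over WT for each member (rows, by class) in whole muscle at 2 and 16 weeks, endothelial cells and FAPs, with red for called higher, blue for called lower and grey for not called. Tgfb1, Ltbp1 and Id2 are red at both muscle times, and no intracellular inhibitor is coloured in any panel; the triangle marks Gdf6, whose CD31WT libraries are at 0.

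The comparison in whole muscle at 2 weeks asked how muscle with DUX4 differed from WT at the earlier time point. Ltbp1 and Id2 rose, Smad3 and Smad4 fell, and these 4 calls held in every refit with another setting or without 1 library. In all, 4 members were higher and 7 lower of 47 tested, or 23.4%, beside 17.6% of all 15396 genes tested (11.2% higher, 6.47% lower). The median log2 change was −0.39 over the members and −0.01 over all genes. With a term for the 2 sets of libraries, 5 members were higher and 10 lower.

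Among ligands at 2 weeks, Tgfb1, the main profibrotic TGF-beta, had 11.8, 11.4, 11.3, 9.12 and 11.7 CPM in IDUX.2Weeks, against 10, 5.74, 6.97, 6.62 and 7.25 CPM in WT.2Weeks. The groups overlapped through the lowest DUX4 and the highest WT library. Tgfb1 was called higher (log2 0.59 ± 0.18, adjusted p = 0.0272), and the call was kept in only 2 of 10 refits without 1 library, those lacking IDUX.2Weeks replicate 4 or WT.2Weeks replicate 1, and reached an adjusted p of 0.0815 in the others. Tgfb3 was lower, at 30.6 ± 2.25 CPM in IDUX.2Weeks and 42.6 ± 9.95 CPM in WT.2Weeks (log2 −0.48 ± 0.14, adjusted p = 0.0301). It was no longer called without any 1 of replicates 1 to 3 of IDUX.2Weeks or replicates 1, 4 and 5 of WT.2Weeks (adjusted p up to 0.0944). Bmp6 stood at 2.16, 2.62, 4.12, 5.33 and 3.93 CPM in IDUX.2Weeks, against 5.47, 7.36, 5.50, 10.5 and 10.6 CPM in WT.2Weeks. All DUX4 libraries lay below all WT libraries (log2 −1.12 ± 0.33, adjusted p = 0.0252), though the call did not survive leaving out IDUX.2Weeks replicate 1 or 2 or WT.2Weeks replicate 4 or 5 (adjusted p at most 0.0733). Of the 9 ligands not called, the most abundant were Tgfb2 (20.8 ± 6.5 CPM in IDUX.2Weeks, 27.2 ± 7.95 in WT.2Weeks, adjusted p = 0.288) and Bmp4 (4.03 ± 0.935 and 5.35 ± 0.697 CPM, adjusted p = 0.144). The other 7 had log2 changes of −0.77 to 1.93. In bulk muscle, fewer cells of a type and less RNA per cell cannot be told apart.

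Ltbp1, whose protein tethers latent TGF-beta to the matrix, had 49.5, 57.8, 51.8, 25.8 and 63.4 CPM in IDUX.2Weeks, against 29.1, 29.3, 24.9, 15.5 and 17.1 CPM in WT.2Weeks. Only IDUX.2Weeks replicate 4 fell within the WT range. The rise was log2 1.1 ± 0.25 (adjusted p = 0.0055), with log2 ratios of the means of 0.93 in replicates 1 to 3 and 1.44 in replicates 4 and 5. Ltbp3, another latent binding protein gene, was lower at 45.6 ± 5.05 CPM in IDUX.2Weeks and 59.6 ± 6.83 CPM in WT.2Weeks (log2 −0.39 ± 0.13, adjusted p = 0.0494). That call was kept only without IDUX.2Weeks replicate 3 or WT.2Weeks replicate 4 (up to 0.113 elsewhere). Not called were Ltbp4 (66.6 ± 23.4 CPM in IDUX.2Weeks, 89.1 ± 14.5 in WT.2Weeks), the procollagen and chordin protease gene Bmp1 (17.4 ± 2.5 and 24.4 ± 8.65 CPM) and Ltbp2 (log2 −0.01).

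Of 10 receptors and co-receptors 1 fell at 2 weeks. Bmpr1a, a type I BMP receptor gene, had 77.5, 68.4, 78.3, 104 and 79.2 CPM in IDUX.2Weeks, against 104, 133, 96.5, 137 and 111 CPM in WT.2Weeks. IDUX.2Weeks replicate 4 reached the WT range, and the fall was log2 −0.51 ± 0.15 (adjusted p = 0.0221). The call was lost without IDUX.2Weeks replicate 1 or 2 or WT.2Weeks replicate 2 or 4 (reaching an adjusted p of 0.0682). Bmpr2, a type II BMP receptor gene, stood at 92 ± 22.0 CPM in IDUX.2Weeks and 120 ± 25.2 CPM in WT.2Weeks (adjusted p = 0.116), and Tgfbr1, the type I TGF-beta receptor gene, at 39.7 ± 6.2 and 34.5 ± 2.48 CPM. The other 7 receptors had log2 changes of −0.65 to 0.25. Of 4 antagonists tested 1 fell. Chrdl2 had 0.276 to 0.824 CPM in all 5 IDUX.2Weeks libraries, against 4.73, 3.03, 1.83, 0.743 and 0.377 CPM in WT.2Weeks. The groups parted in replicates 1 to 3 (log2 ratio of the means −2.15, with 0.1 CPM added) and not in replicates 4 and 5 (−0.08). Its fitted change was log2 −1.83 ± 0.51 (adjusted p = 0.0208), lost without replicate 1 of either genotype (adjusted p up to 0.0746). The BMP antagonist genes Chrd (4.97 ± 2.03 CPM in IDUX.2Weeks, 3.01 ± 1.39 in WT.2Weeks) and Nog (3.28 ± 1.46 and 4.74 ± 1.18 CPM) were not called, nor was Chrdl1 (log2 −0.42).

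Smads moved in both directions at 2 weeks. Smad3, which carries the TGF-beta signal to the nucleus, had 45.1, 47.7, 48.3, 87.1 and 66.6 CPM in IDUX.2Weeks, against 118, 102, 122, 155 and 155 CPM in WT.2Weeks. The groups did not overlap, within either set of libraries or between them, and the fall was log2 −1.15 ± 0.19 (adjusted p = 0.000605). Smad4, the partner of all receptor Smads, had 33.4, 37.3, 34.7, 46.3 and 30.9 CPM in IDUX.2Weeks, against 43.5, 52.7, 45.3, 54.0 and 52.1 CPM in WT.2Weeks. It fell by 0.44 ± 0.11 on the log2 scale (adjusted p = 0.008), with IDUX.2Weeks replicate 4 alone above the lowest WT library. Smad2 was higher in all DUX4 libraries, at 14.4 ± 0.868 CPM in IDUX.2Weeks and 11.3 ± 1.31 CPM in WT.2Weeks (log2 0.35 ± 0.11, adjusted p = 0.0351). Its call was kept in 3 of 10 refits, those without IDUX.2Weeks replicate 4 or WT.2Weeks replicate 2 or 5 (adjusted p at most 0.0936). Not called were Smad5 (47.0 ± 2.56 CPM in IDUX.2Weeks, 42.3 ± 3.23 in WT.2Weeks), Smad1 (19.0 ± 1.77 and 14.1 ± 2.74 CPM) and Smad9 (log2 1.37, adjusted p = 0.0509). None of the 5 intracellular inhibitors was called. The most abundant were the ubiquitin ligase genes Smurf2 (27.9 ± 5.11 CPM in IDUX.2Weeks, 36.6 ± 4.35 in WT.2Weeks, adjusted p = 0.0616) and Smurf1 (21.1 ± 3.54 and 23.2 ± 1.35 CPM, adjusted p = 0.563), and the other 3 had log2 changes of −0.74 to 0.16.

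Of the 5 target genes, Id2 rose at 2 weeks. It had 10.3, 9.11, 7.73, 3.55 and 10.9 CPM in IDUX.2Weeks, against 3.75, 4.22, 3.76, 4.12 and 2.35 CPM in WT.2Weeks. The 4 other DUX4 libraries were above every WT library, whereas IDUX.2Weeks replicate 4 was not. The change was log2 1.19 ± 0.26 (adjusted p = 0.00459), and the ratio of the means was 1.19 on the log2 scale in replicates 1 to 3 and 1.14 in replicates 4 and 5. Tgfbi (16.5 ± 7.05 CPM in IDUX.2Weeks, 17.9 ± 9.43 in WT.2Weeks) and Id3 (16.4 ± 4.44 and 11.1 ± 2.47 CPM, adjusted p = 0.0928) were not called, and Id1 and Id4 had log2 changes of 0.32 and 0.36. Markers of several cell types moved in the same libraries. Of 8 myofibre markers 5 were lower, with a summed level of 57116 to 114647 CPM in IDUX.2Weeks and 113903 to 138787 CPM in WT.2Weeks. Of 8 macrophage markers 2 were higher (56.6 to 134 CPM in IDUX.2Weeks, 26.2 to 78.8 CPM in WT.2Weeks). Of 8 mural cell markers 2 were lower, Kcnj8 and Abcc9 (346 to 898 and 619 to 1117 CPM in sum), and Pdgfrb, Rgs5, Myh11 and Notch3 were not called. Of 5 satellite cell markers 1 was higher, Cdh15, with sums that did not overlap (66.8 to 106 CPM in IDUX.2Weeks, 39.5 to 59.4 CPM in WT.2Weeks), and of 5 tenocyte markers Thbs4 was higher and Mkx lower (72.4 to 142 and 34 to 95.2 CPM). No endothelial or FAP marker was called, and no marker of these 7 lists was at 0 in any of these groups. IDUX.2Weeks replicate 4, which lay in or near the WT range for Ltbp1, Bmpr1a, Smad4 and Id2, stood out in most marker lists. It had the highest myofibre, endothelial, FAP, mural and tenocyte sums of its group and the lowest macrophage and satellite cell sums. The part of these markers in the results was not tested.

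**Figure D3:**
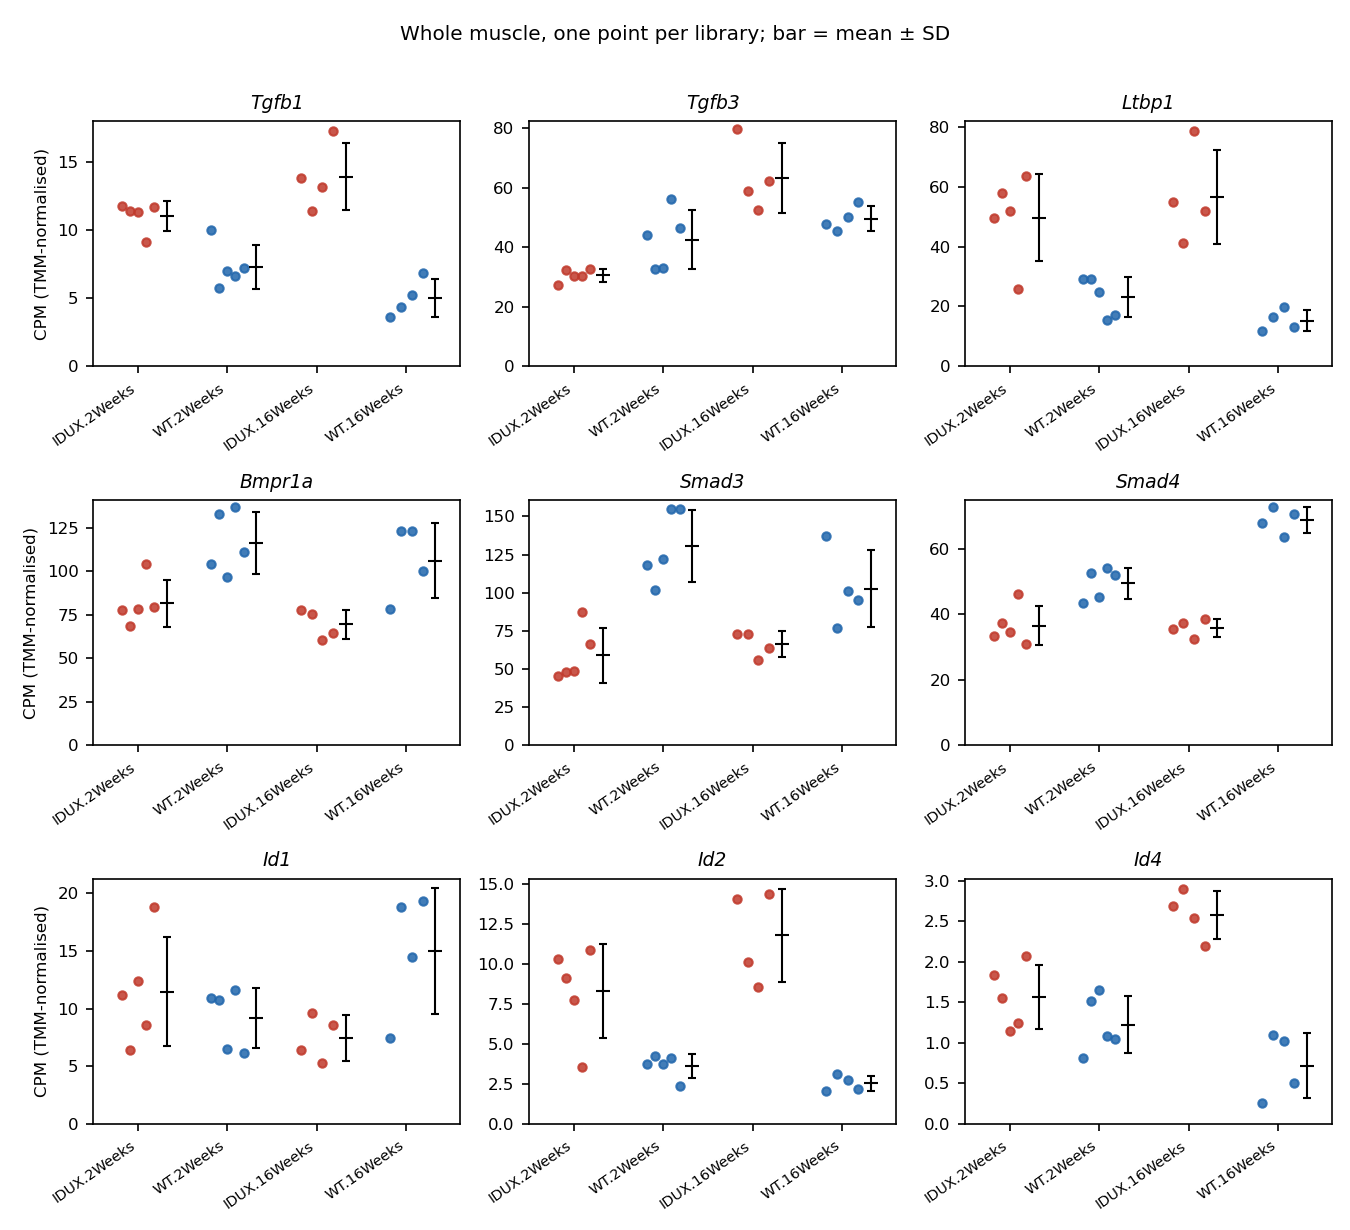
CPM (vertical axis, starting at 0) of 9 members in each whole-muscle library, with the mean ± SD beside the points, DUX4 in red and WT in blue. Smad3 shows the 2 genotypes apart at both times, Smad4 and Id2 show them apart at 16 weeks and touching at 2 weeks through IDUX.2Weeks replicate 4, and Id1 overlaps at 16 weeks through WT.16Weeks replicate 1.

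Genes of the pathway outside the 48 were taken from a list of 63, of which 51 were tested. Of these 5 were higher and 8 lower at 2 weeks, beside 11.2% and 6.47% of all genes. Co-receptors and type II receptors were among the falls with the smallest p. Hjv, annotated as Hfe2, the BMP co-receptor hemojuvelin, stood at 283 ± 70.3 CPM in IDUX.2Weeks and 542 ± 26 CPM in WT.2Weeks (log2 −0.93 ± 0.15, adjusted p = 0.000403). The activin type II receptor gene Acvr2b was at 2.43 ± 0.335 and 4.79 ± 0.623 CPM, and the BMP co-receptor gene Rgma at 24.2 ± 5.24 and 43.5 ± 13 CPM, with IDUX.2Weeks first. Of the rises, Itgav, an integrin subunit that can release latent TGF-beta, was at 80.7 ± 15.2 CPM in IDUX.2Weeks and 47.2 ± 5.11 CPM in WT.2Weeks (log2 0.77 ± 0.14, adjusted p = 0.00142). The ubiquitin ligase gene Nedd4l was at 46.6 ± 4.99 CPM in IDUX.2Weeks and 30.2 ± 5.7 CPM in WT.2Weeks. The stress-induced ligand gene Gdf15 was called higher at low counts, at 0.504 ± 0.238 CPM in IDUX.2Weeks and 0.0163 ± 0.0365 CPM in WT.2Weeks, where 4 of 5 libraries had none.

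The comparison at 16 weeks asked the same at the later time point. Tgfb1, Ltbp1, Id2 and Id4 rose and Smad4 fell, in every refit. Of 47 members 8 were higher and 6 lower, or 29.8%, beside 26.6% of all 15396 genes (14.1% higher, 12.5% lower). The median log2 change was 0.02 over the members and 0.01 over all genes. Without WT.16Weeks replicates 1 and 4, 6 members were higher and 5 lower. Of the 11 members called at 2 weeks, 7 were called in the same direction among the 14 at 16 weeks, which is 63.6% of the first list and 50.0% of the second. They were Tgfb1, Ltbp1 and Id2, higher, and Ltbp3, Bmpr1a, Smad3 and Smad4, lower. The matching shares over all genes are not given here, so these shares do not set the members apart from other genes.

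Ligands called at 16 weeks were all higher. Tgfb1 had 13.8, 11.4, 13.2 and 17.3 CPM in IDUX.16Weeks, against 3.64, 4.34, 5.26 and 6.89 CPM in WT.16Weeks. Every DUX4 library stood above every WT library (log2 1.49 ± 0.20, adjusted p = 8.22e-05). Gdf5 had 13.2, 3.20, 5.58 and 5.81 CPM in IDUX.16Weeks, against 1.82, 0.0776, 0.113 and 0.672 CPM in WT.16Weeks. The groups did not overlap (log2 3.36 ± 0.99, adjusted p = 0.0188), but the call was lost without IDUX.16Weeks replicate 1 or WT.16Weeks replicate 2 or 3 (adjusted p up to 0.0621). Gdf5 overlaps Gm15557 on the other strand. Gdf6, a ligand close to Gdf5, had 3.48, 0.914, 1.14 and 0.774 CPM in IDUX.16Weeks, against 0.130 and 0.155 CPM in WT.16Weeks replicates 1 and 2 and no count in the other 2 (adjusted p = 0.00355). So few WT counts leave the size of that rise poorly set. Not called were Tgfb3 (63.3 ± 11.7 CPM in IDUX.16Weeks, 49.6 ± 4.13 in WT.16Weeks, adjusted p = 0.113) and Tgfb2 (28.2 ± 6.22 and 33.4 ± 9.63 CPM), and the other 7 ligands had log2 changes of −0.52 to 1.52.

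Ltbp1 had 54.9, 41.3, 78.4 and 51.8 CPM in IDUX.16Weeks, against 11.7, 16.5, 19.7 and 13.3 CPM in WT.16Weeks. The lowest DUX4 library was above the highest WT library (log2 1.88 ± 0.28, adjusted p = 0.000209). Ltbp3 was lower at 49.8 ± 9.26 CPM in IDUX.16Weeks and 69.1 ± 10.6 CPM in WT.16Weeks (log2 −0.47 ± 0.15, adjusted p = 0.0236), a call lost without IDUX.16Weeks replicate 3 or WT.16Weeks replicate 1 (adjusted p up to 0.0816). Ltbp4 was not called, at 67.9 ± 26.4 CPM in IDUX.16Weeks and 67.3 ± 39.9 CPM in WT.16Weeks, where replicate 1 had 7.74 CPM and the others 82.1 to 90.6. Bmp1 (14 ± 4.47 and 11.3 ± 4.25 CPM) and Ltbp2 (log2 2.35, adjusted p = 0.0966) were not called either.

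No receptor rose at 16 weeks and 2 of 10 fell. Acvr1b, a type I receptor gene for activins, had 21.6, 37.2, 29.2 and 26.1 CPM in IDUX.16Weeks, against 117, 54.8, 86.2 and 49.7 CPM in WT.16Weeks. The WT libraries varied more than the DUX4 libraries but lay wholly above them (log2 −1.44 ± 0.31, adjusted p = 0.00267). Bmpr1a had 77.7, 75.5, 60.3 and 64.3 CPM in IDUX.16Weeks, against 78.4, 123, 123 and 99.8 CPM in WT.16Weeks. WT.16Weeks replicate 1 was within 1 CPM of the highest DUX4 library, and the fall was log2 −0.61 ± 0.16 (adjusted p = 0.011). Bmpr2 (95.3 ± 5.65 CPM in IDUX.16Weeks, 130 ± 22.3 in WT.16Weeks, adjusted p = 0.0805) and Tgfbr1 were not called. Tgfbr1 averaged 46.8 ± 3.19 CPM in IDUX.16Weeks and 66.7 ± 44.0 CPM in WT.16Weeks, of which replicate 1 had 132 CPM and the others 40.4 to 52.9. The remaining 6 receptors had log2 changes of −0.47 to 0.47.

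The antagonist gene Chrdl1 had 8.98, 4.57, 4.32 and 7.96 CPM in IDUX.16Weeks, against 0.846, 3.18, 1.98 and 2.35 CPM in WT.16Weeks. The groups did not overlap (log2 1.65 ± 0.48, adjusted p = 0.0175), and the call was lost without IDUX.16Weeks replicate 1 (adjusted p = 0.0562) or without WT.16Weeks replicates 1 and 4 together (log2 1.33, adjusted p = 0.105). Chrd (5.28 ± 0.597 CPM in IDUX.16Weeks, 4.02 ± 1.48 in WT.16Weeks), Nog (3.64 ± 1.45 and 5.36 ± 2.86 CPM) and Chrdl2 (log2 −1.09) were not called. Smad4 had 35.4, 37.2, 32.3 and 38.7 CPM in IDUX.16Weeks, against 68.0, 72.8, 63.6 and 70.7 CPM in WT.16Weeks. Both groups were tight and far apart, and the fall of log2 −0.94 ± 0.12 had the smallest adjusted p of the members (4.31e-05). Smad9, a BMP receptor Smad, had 1.36, 1.52, 1.52 and 1.85 CPM in IDUX.16Weeks, against 0.390, 0.310, 0.509 and 0.168 CPM in WT.16Weeks. It rose by 2.07 ± 0.51 on the log2 scale (adjusted p = 0.00706, and 0.0521 without WT.16Weeks replicates 1 and 4). Smad3 was lower at 66.4 ± 8.28 CPM in IDUX.16Weeks and 103 ± 25.2 CPM in WT.16Weeks (log2 −0.63 ± 0.22, adjusted p = 0.0397). That call was kept only without IDUX.16Weeks replicate 2 or WT.16Weeks replicate 2 or 4 among the 8 refits without 1 library (adjusted p up to 0.118). Without WT.16Weeks replicates 1 and 4 together it was lost (log2 −0.43, adjusted p = 0.223). Smad5 (43.4 ± 4.01 CPM in IDUX.16Weeks, 45.6 ± 4.94 in WT.16Weeks), Smad1 (16.3 ± 2.59 and 16.1 ± 6.5 CPM) and Smad2 (log2 0.21) were not called. Nor was any of the 5 intracellular inhibitors, with Smurf2 at 27.5 ± 5.5 and 30.6 ± 3.46 CPM, Smurf1 at 21.7 ± 3.19 and 21.5 ± 4.36 CPM, and log2 changes of −0.32 to 0.04 for the other 3.

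The Id genes parted at 16 weeks, with Id2 and Id4 higher and Id1 lower. Id2 had 14.1, 10.1, 8.57 and 14.4 CPM in IDUX.16Weeks, against 2.08, 3.10, 2.77 and 2.18 CPM in WT.16Weeks. Id4 had 2.68, 2.89, 2.54 and 2.19 CPM in IDUX.16Weeks, against 0.260, 1.09, 1.02 and 0.504 CPM in WT.16Weeks. Neither gene's groups overlapped (log2 2.21 ± 0.30, adjusted p = 9.16e-05 for Id2; log2 1.8 ± 0.37, adjusted p = 0.00228 for Id4). Id4 shares exon sequence with A330033J07Rik and Gm49291 on the other strand. Id1 had 6.40, 9.59, 5.27 and 8.56 CPM in IDUX.16Weeks, against 7.48, 18.8, 14.5 and 19.3 CPM in WT.16Weeks. Its groups overlapped through WT.16Weeks replicate 1, and the fall (log2 −1.01 ± 0.34, adjusted p = 0.037) was kept only without IDUX.16Weeks replicate 2 or WT.16Weeks replicate 1 (adjusted p up to 0.107). Tgfbi (16.6 ± 5.4 CPM in IDUX.16Weeks, 11 ± 1.4 in WT.16Weeks) and Id3 (17.1 ± 3.82 and 14.1 ± 3.83 CPM) were not called.

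The promoters of Id2 and Id4, which rose together at 16 weeks, and of Id3, which was not called in any DUX4 comparison, are shown from RefSeq on GRCm38.p6 as the 250 bases before the start RefSeq gives. The GENCODE spans of Id2 and Id3 start further upstream, so their windows lie inside those spans. Of the 48 members 31 had an entry in that promoter table. Capitals mark GGCGCC, a Smad1 and Smad5 binding motif that is its own reverse complement, and the Smad box CAGAC on either strand (GTCTG when reversed). Neither motif overlaps the other.
Id2, chr12:25096093-25096342, minus strand: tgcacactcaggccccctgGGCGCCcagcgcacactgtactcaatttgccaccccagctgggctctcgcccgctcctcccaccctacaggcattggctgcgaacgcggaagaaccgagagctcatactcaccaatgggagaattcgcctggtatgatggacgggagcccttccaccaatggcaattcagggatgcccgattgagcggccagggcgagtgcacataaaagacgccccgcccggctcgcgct
Id4, chr13:48260866-48261115, plus strand: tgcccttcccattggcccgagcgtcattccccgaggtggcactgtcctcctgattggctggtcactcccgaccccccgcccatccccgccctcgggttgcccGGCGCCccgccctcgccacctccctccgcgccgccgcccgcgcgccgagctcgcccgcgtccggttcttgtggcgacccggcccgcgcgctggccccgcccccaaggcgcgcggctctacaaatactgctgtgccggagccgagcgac
Id3, chr4:136143572-136143821, plus strand: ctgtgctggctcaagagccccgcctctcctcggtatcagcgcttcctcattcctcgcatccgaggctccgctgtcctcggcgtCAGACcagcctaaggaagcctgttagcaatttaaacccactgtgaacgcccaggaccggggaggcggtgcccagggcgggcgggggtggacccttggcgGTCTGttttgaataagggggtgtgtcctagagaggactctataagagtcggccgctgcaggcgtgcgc
Id2 and Id4 each hold 1 GGCGCC, beginning 231 and 148 bases before the start, and Id3 holds CAGAC and GTCTG, beginning 167 and 68 bases before it. Of 32851 RefSeq promoters of that length 9.59% hold GGCGCC and 42.2% hold CAGAC or GTCTG, so these matches describe the letters and name no binding site.

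Cell type markers also moved at 16 weeks. Myofibre markers summed to 58883 to 86362 CPM in IDUX.16Weeks and 108609 to 142838 CPM in WT.16Weeks (4 of 8 lower). FAP markers summed to 552 to 940 and 118 to 428 CPM (2 of 8 higher, Col1a1 and Lum), macrophage markers to 43.7 to 117 and 16 to 57.2 CPM (3 of 8 higher), and 5 tenocyte markers to 199 to 369 and 41.8 to 79.7 CPM (1 higher, Thbs4), with IDUX.16Weeks first. Of 5 satellite cell markers Myf5 and Vcam1 were higher (75.4 to 92.9 CPM in sum in IDUX.16Weeks, 44.7 to 149 CPM in WT.16Weeks). Of 8 mural markers only Abcc9 was called, lower (423 to 545 and 423 to 931 CPM in sum). Abcc9 itself stood at 200 ± 18.5 CPM in IDUX.16Weeks and 350 ± 34.3 CPM in WT.16Weeks. It had 30.8 ± 8.75 CPM in CD31DUX and 56 ± 12.1 CPM in CD31WT, so it may not mark mural cells alone in whole muscle. WT.16Weeks replicate 1 gave the lowest FAP and mural sums and the highest macrophage and satellite cell sums of its group. None of these markers was at 0 in either group, and no endothelial marker was called. Their part in the member results was not tested. Of the 51 other pathway genes tested, 10 were higher and 10 lower at 16 weeks, beside 14.1% and 12.5% of all genes. Itgav stood at 78.1 ± 5.66 CPM in IDUX.16Weeks and 35.5 ± 8.22 CPM in WT.16Weeks (log2 1.14 ± 0.16, adjusted p = 0.000143). Runx2, a transcription factor gene of bone formation that responds to BMP, was at 3.10 ± 0.20 and 0.836 ± 0.302 CPM, Gdf15 at 1.57 ± 0.503 and 0.0792 ± 0.124 CPM, and the antagonist gene Nbl1 at 39.9 ± 8.65 and 14 ± 6.73 CPM. Among the falls, the phosphatase gene Ppm1a, which acts on Smads, was at 123 ± 8.46 CPM in IDUX.16Weeks and 204 ± 10 CPM in WT.16Weeks (log2 −0.74 ± 0.13, adjusted p = 0.000797). Hjv was at 306 ± 56.6 and 578 ± 57.4 CPM, Furin, which encodes the protease that cleaves the TGF-beta precursor, at 45.5 ± 2.8 and 67.9 ± 12.8 CPM, and the deubiquitinase gene Usp15 at 116 ± 11.2 and 173 ± 17.2 CPM.

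Whether the DUX4 effect differed between 16 and 2 weeks was tested as an interaction. By edgeR 0 of 47 members were called, beside 0.299% of all genes, and 13 had an unadjusted p under 0.05 (10 with a positive and 3 with a negative difference, 16 minus 2 weeks), beside 17.7% of all genes. The DESeq2 Wald test called 3 members (Chrdl1, Tgfb1 and Tgfb3) and limma voom called 1 (Tgfb3). Tgfb3 had the smallest adjusted p in edgeR, 0.0972, with a log2 difference of 0.83 ± 0.21 between a change of −0.48 at 2 weeks and one of 0.35 at 16 weeks. For the other abundant members the difference, 16 minus 2 weeks, was 0.14 (Tgfb2), 0.44 (Ltbp4), −0.09 (Ltbp3), −0.06 (Bmpr2), −0.10 (Bmpr1a), −0.34 (Chrd) and −0.03 (Nog) on the log2 scale. It was 0.52 for Smad3, −0.50 for Smad4, 0.24 for Smurf2, 0.15 for Smurf1, 0.72 for Tgfbi and −0.26 for Id3. By class, the median difference was 0.81 over 12 ligands, 0.78 over 5 latent binding proteins or proteases, −0.08 over 10 receptors and 0.24 over 5 intracellular inhibitors, against −0.01 over all genes. The differences ran from −0.01 to 3.07 for ligands, −0.09 to 2.36 for binding proteins or proteases and −0.88 to 0.65 for receptors. They ran from −0.12 to 0.65 for inhibitors, −0.34 to 2.07 for antagonists, −0.50 to 0.70 for signalling Smads and −1.33 (Id1) to 1.43 (Id4) for targets. All 8 FAP markers also had positive differences, from 0.76 (Dpp4) to 2.03 (Col1a1), with none called. Their part in the class medians was not tested.

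In sorted endothelial cells the comparison asked how CD31+ cells of DUX4 mice differed from those of WT mice. Ligand and matrix genes rose with DUX4, namely Tgfb2, Bmp5, Gdf6, Ltbp3, Bmp1 and Tgfbi, as did the receptor gene Tgfbr2, while Acvrl1 and Id1 fell. That made 7 members higher and 2 lower of 46, or 19.6%, beside 5.07% of all 17008 genes tested (3.72% higher, 1.35% lower), with a median log2 change of 0.12 over the members and 0.00 over all genes. FAP markers were higher in the same libraries, and their values stand below.

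Tgfb2 had 35.2, 42.9, 55.2 and 42.3 CPM in CD31DUX, against 19.1, 12.8 and 16.1 CPM in CD31WT. Bmp5 had 50.9, 54.4, 70.1 and 45.6 CPM in CD31DUX, against 22.9, 21.4 and 11.6 CPM in CD31WT. For both ligands the lowest DUX4 library was above the highest WT library (log2 1.46 ± 0.18, adjusted p = 0.00015 for Tgfb2; log2 1.57 ± 0.22, adjusted p = 0.000371 for Bmp5). Gdf6 had 3.51, 2.37, 0.721 and 0.522 CPM in CD31DUX and no count in the 3 CD31WT libraries, which puts it at least 9.53-fold higher when each empty library is set to 3 counts (adjusted p = 0.00142, and 0.0552 by limma voom). Ltbp3 had 159, 114, 128 and 134 CPM in CD31DUX, against 59.5, 53.1 and 33.5 CPM in CD31WT (log2 1.45 ± 0.18, adjusted p = 0.000108). Bmp1 had 122, 141, 147 and 139 CPM in CD31DUX, against 92, 77.9 and 70.7 CPM in CD31WT (log2 0.77 ± 0.13, adjusted p = 0.0015). Neither of these overlapped between groups. Tgfbr2, the type II receptor gene through which TGF-beta binds, had 322, 333, 329 and 307 CPM in CD31DUX, against 166, 136 and 118 CPM in CD31WT. Its DUX4 libraries lay within a narrow range far above WT (log2 1.2 ± 0.15, adjusted p = 0.000101). Tgfbi had 176, 270, 219 and 213 CPM in CD31DUX, against 121, 63.0 and 82.4 CPM in CD31WT (log2 1.31 ± 0.21, adjusted p = 0.00125). These 7 calls were kept in all 7 refits without 1 library.

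Id1 had 191, 261, 243 and 237 CPM in CD31DUX, against 432, 594 and 540 CPM in CD31WT. The groups were well apart (log2 −1.16 ± 0.17, adjusted p = 0.000583), and the call held in every refit. Acvrl1, the endothelial type I receptor gene known as Alk1, had 226, 197, 163 and 210 CPM in CD31DUX, against 274, 250 and 292 CPM in CD31WT. They did not overlap, but the fall was small (log2 −0.45 ± 0.12, adjusted p = 0.0452) and was kept only without CD31DUX replicate 1 among 7 refits (adjusted p up to 0.232). Its co-receptor gene Eng was not called, at 335 ± 49.5 CPM in CD31DUX and 369 ± 42.2 CPM in CD31WT (adjusted p = 0.684), nor was Tgfbr3, at 202 ± 12.0 and 141 ± 29.2 CPM (adjusted p = 0.157). Bmp6 did not pass the test though its groups did not overlap, at 65.4 ± 21.9 CPM in CD31DUX and 131 ± 16.4 CPM in CD31WT (adjusted p = 0.0587). Other members not called were Bmp2 (53.7 ± 5.75 CPM in CD31DUX, 52.1 ± 2.74 in CD31WT), Tgfb3 (97.4 ± 6.63 and 69.0 ± 10.1 CPM, adjusted p = 0.0713), Ltbp4 (2041 ± 176 and 1421 ± 416 CPM) and Ltbp1 (74.3 ± 14.2 and 88.9 ± 13.8 CPM). No antagonist was called (Chrdl2 16 ± 6.31 CPM in CD31DUX and 33.4 ± 5.91 in CD31WT with no overlap, adjusted p = 0.147, Chrd 7.55 ± 3.83 CPM in CD31DUX and 4.90 ± 2.97 in CD31WT, Chrdl1 12.9 ± 1.25 and 18.8 ± 6.25 CPM). No Smad was called either (Smad1 153 ± 12.6 and 129 ± 10.9 CPM, Smad4 114 ± 7.22 and 101 ± 40.3 CPM). The repressor gene Skil (141 ± 16.4 CPM in CD31DUX, 95.4 ± 20.3 in CD31WT), the inhibitory Smad gene Smad7 (42.2 ± 3.97 and 59.2 ± 15.3 CPM), Id3 (777 ± 115 and 1031 ± 215 CPM) and Id2 (208 ± 51.2 and 238 ± 13.4 CPM) did not pass the test. The remaining 21 members not called had log2 changes of −1.35 to 0.56. Among them the BMP receptor gene Bmpr2 came nearest to a call. It stood at 34.4 ± 7.68 CPM in CD31DUX and 61.5 ± 13.5 CPM in CD31WT, with no overlap (log2 −0.84 ± 0.24, adjusted p = 0.0533).

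**Figure D4:**
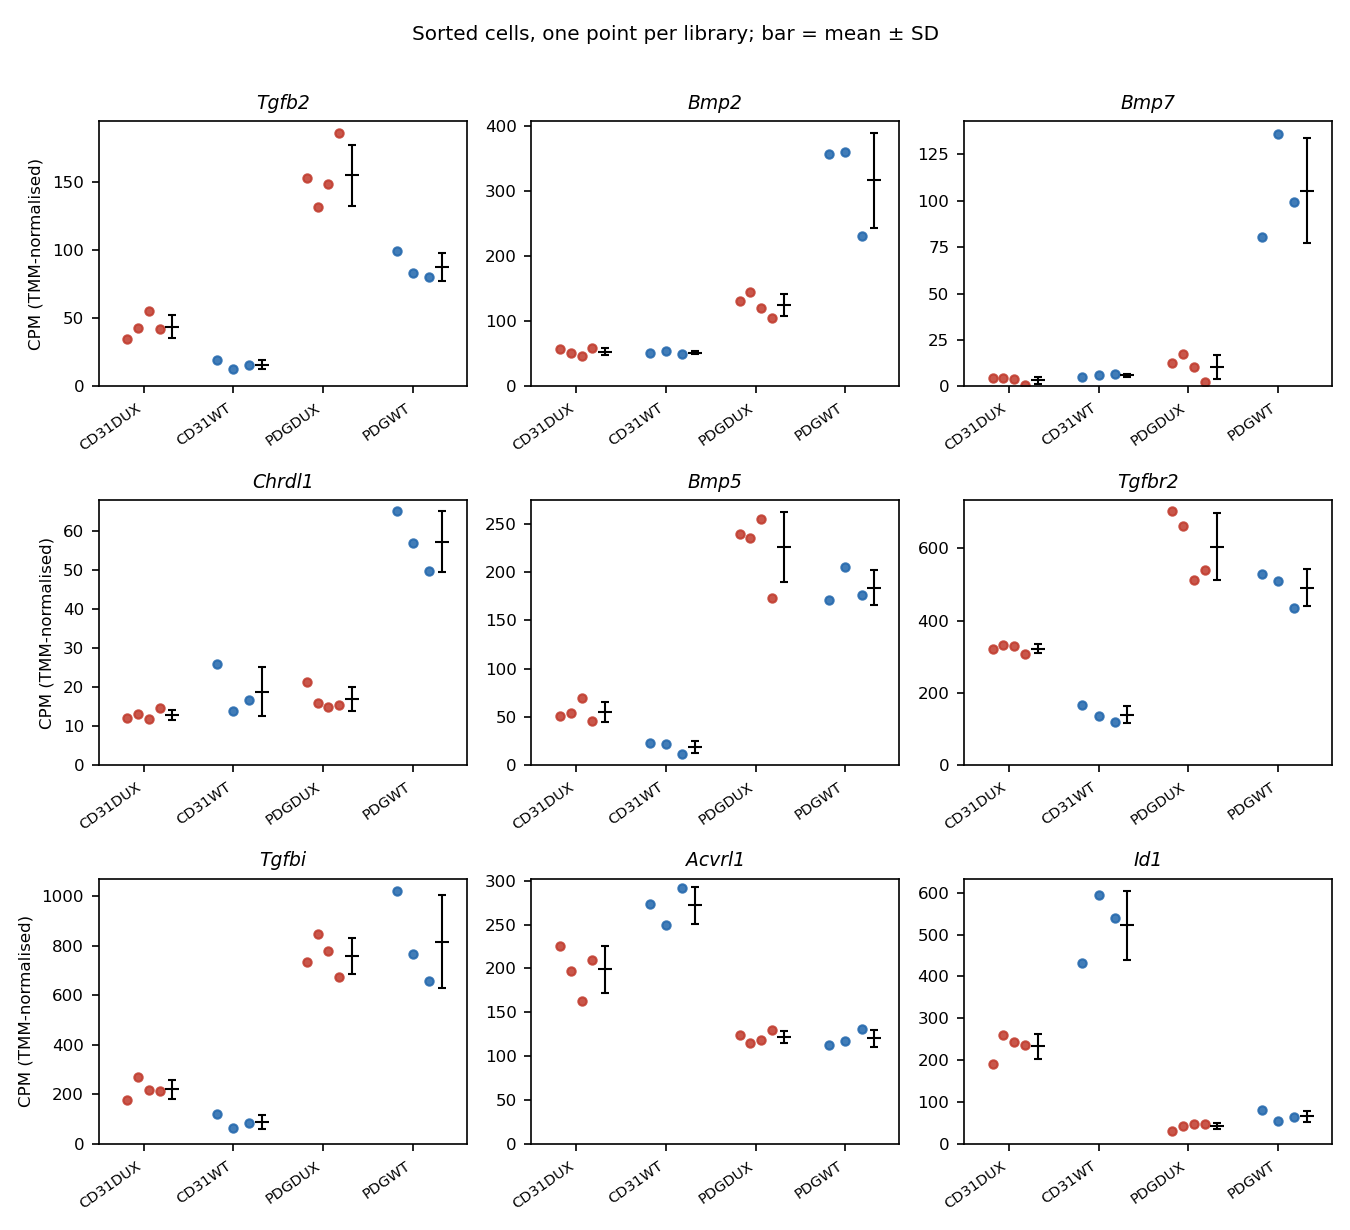
CPM (vertical axis, starting at 0) of 9 members in each sorted-cell library, with the mean ± SD beside the points, DUX4 in red and WT in blue. Tgfbr2 and Tgfbi are higher in CD31DUX than in CD31WT but below both FAP groups, Bmp2, Bmp7 and Chrdl1 are lower in PDGDUX than in PDGWT, and Id1 is highest in CD31WT.

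The plot of endothelial libraries as a share of the PDGDUX level sets these rises beside FAP markers. Of 8 FAP markers 5 were called higher in CD31DUX, with Pdgfra at 151 ± 33.7 CPM in CD31DUX and 45.9 ± 20.2 CPM in CD31WT, and Lum at 1081 ± 175 and 227 ± 72.1 CPM. The differences of those 5 genes (Pdgfra, Dpt, Dcn, Col1a1 and Lum) came to 9.25% to 14.6% of their mean level in PDGDUX. Of the 3 markers not called, Dpp4 and Pi16 differed by 13.3% and 6.28% of it, and Ly6a went the other way, at 807 ± 141 CPM in CD31DUX and 1108 ± 288 CPM in CD31WT (−23.9%). The differences of the members that rose came to 11.9% (Bmp1), 16.2% (Bmp5), 17.3% (Tgfbi), 18% (Tgfb2), 21.4% (Ltbp3), 30.2% (Tgfbr2) and 58.3% (Gdf6, at low counts) of theirs. All 7 had a higher mean in PDGWT than in CD31WT, a comparison that shares the CD31WT libraries. Endothelial markers summed to 3052 to 3476 CPM in CD31DUX and 4194 to 4858 CPM in CD31WT, with none of 8 called by edgeR. Among mural cell markers Acta2 and Myh11 were lower and Pdgfrb higher (604 to 850 CPM in sum in CD31DUX, 1101 to 1454 in CD31WT), and 1 of 5 tenocyte markers, Thbs4, was higher (1758 to 2828 and 1090 to 1242 CPM). With no marker called, the sums also did not overlap for 8 macrophage markers (363 to 529 CPM in CD31DUX, 88.5 to 322 CPM in CD31WT), 8 myofibre markers (305 to 757 and 87.2 to 221 CPM) and 5 Schwann cell markers (88.8 to 119 and 145 to 218 CPM). None of the markers of these 7 lists was at 0 in either group. The part of these markers in the endothelial results was not tested.

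**Figure D5:**
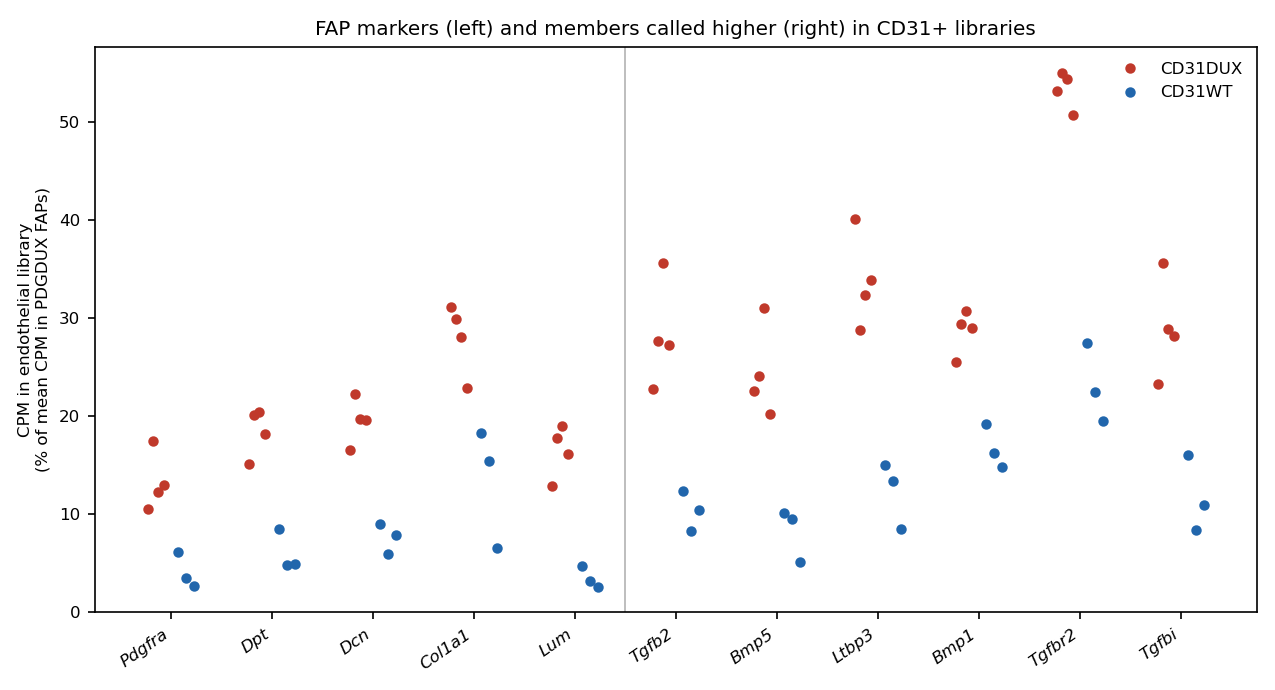
CPM in each endothelial library as a percent of the mean CPM in PDGDUX FAPs (vertical axis) for the 5 called FAP markers (left) and 6 members called higher, Gdf6 left out for its low counts (right), with CD31DUX in red and CD31WT in blue. CD31DUX lies above CD31WT for all 11 genes, and Tgfbr2 reaches the highest share.

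Of the 56 other pathway genes tested in sorted cells, 9 were higher and 2 lower in endothelial cells with DUX4, beside 3.72% and 1.35% of all genes. Of the 9 that rose 6 were secreted modulators. With the smallest p came Dcn, which encodes decorin, a TGF-beta binding proteoglycan that also counts among the FAP markers (5109 ± 614 CPM in CD31DUX, 1986 ± 405 in CD31WT). Bmper, a BMP modulator gene, was at 71.6 ± 9.5 and 20.1 ± 9.31 CPM, the TGF-beta activator gene Thbs1 at 1259 ± 185 and 465 ± 65.3 CPM, and the fibrillin gene Fbn1 at 170 ± 17.3 and 75.5 ± 23.2 CPM. The 2 that fell, Acta2 (122 ± 29.4 CPM in CD31DUX, 323 ± 19.9 in CD31WT) and Tagln (87.4 ± 19.3 and 187 ± 31.9 CPM), encode smooth muscle proteins that respond to TGF-beta.

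In FAPs Tgfb2 rose, and Bmp2, Bmp7, Chrdl1 and Chrdl2 fell, so that 1 member was higher and 4 lower of 46, or 10.9%, beside 3.0% of all 17008 genes (1.23% higher, 1.77% lower). The median log2 change was 0.00 over the members and −0.07 over all genes. Bmp2 had 131, 145, 120 and 105 CPM in PDGDUX, against 358, 361 and 232 CPM in PDGWT. Even the lowest WT library was well above the highest DUX4 library (log2 −1.34 ± 0.16, adjusted p = 0.000205). Bmp7 had 12.4, 17.5, 10.2 and 2.23 CPM in PDGDUX, against 80.5, 136 and 99.6 CPM in PDGWT. It was the largest fall among the called members (log2 −3.32 ± 0.59, adjusted p = 0.00786). Tgfb2 had 153, 132, 149 and 186 CPM in PDGDUX, against 99.7, 83.2 and 80.6 CPM in PDGWT. The groups did not overlap (log2 0.82 ± 0.18, adjusted p = 0.0192), and the call was lost without PDGDUX replicate 4 or PDGWT replicate 2 or 3 (adjusted p up to 0.0872). Tgfb2 shares exon sequence with Gm29491 on the other strand.

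Both chordin-like antagonist genes fell in FAPs. Chrdl1 had 21.4, 15.8, 14.8 and 15.3 CPM in PDGDUX, against 65.2, 56.8 and 49.6 CPM in PDGWT (log2 −1.76 ± 0.22, adjusted p = 0.00031). Chrdl2 was low in both, at 1.2, 0.962, 0.0948 and 0.942 CPM in PDGDUX, against 3.34, 3.52 and 3.19 CPM in PDGWT. It had no overlap between groups (log2 −2.05 ± 0.47, adjusted p = 0.0257), and its call was lost in 4 of 7 refits, those without PDGDUX replicate 4 or any PDGWT library (adjusted p up to 0.0684). Chrd (34.1 ± 7.67 CPM in PDGDUX, 57.2 ± 14.3 in PDGWT, adjusted p = 0.448) and Nog (4.48 ± 3.82 and 5.75 ± 2.85 CPM) were not called. No binding protein, receptor, Smad, inhibitor or target gene was called in FAPs. Ltbp4 stood at 2913 ± 523 CPM in PDGDUX and 3322 ± 966 CPM in PDGWT, Bmp1 at 479 ± 46.1 and 422 ± 40.3, Tgfbr2 at 605 ± 93.2 and 491 ± 50.7, and Tgfbr3, the co-receptor betaglycan, at 458 ± 87.1 and 514 ± 163. Smad1 was at 76.0 ± 5.14 CPM in PDGDUX and 93.4 ± 14.3 CPM in PDGWT, Smad4 at 117 ± 13.8 and 116 ± 4.87, Skil at 232 ± 46.5 and 205 ± 64.6, and Smad7 at 78.4 ± 17.9 and 72.1 ± 18.8. Id3 was at 1576 ± 203 CPM in PDGDUX and 1272 ± 308 CPM in PDGWT, Tgfbi at 757 ± 73.5 and 815 ± 188, Tgfb3 at 165 ± 20.2 and 168 ± 31.8, and Bmp5 at 226 ± 36.2 and 184 ± 18.3. The remaining 27 members not called had log2 changes of −2.54 to 1.11. Among them Id1 stood at 42.2 ± 7.62 CPM in PDGDUX and 66.2 ± 13.2 CPM in PDGWT, with no overlap (log2 −0.65 ± 0.18, adjusted p = 0.0586). Smad3 (58.7 ± 10.3 and 31.2 ± 11.1 CPM, adjusted p = 0.0882) did not overlap either. Id2 did (296 ± 113 and 150 ± 34.1 CPM, adjusted p = 0.067).

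Markers of other cells moved in the FAP libraries too. Endothelial markers were lower in PDGDUX (3 of 8 called, 95.6 to 163 CPM in sum in PDGDUX, 227 to 269 CPM in PDGWT), and of the 4 members that fell, Chrdl2 was lower in PDGWT than in CD31WT and Bmp2, Bmp7 and Chrdl1 were higher, in a comparison that shares the PDGWT libraries. Among mural markers Acta2 and Myh11 were lower and Pdgfrb higher (506 to 672 CPM in sum in PDGDUX, 419 to 449 in PDGWT), among 5 tenocyte markers Tnmd and Thbs4 were higher (2285 to 2732 and 716 to 1060 CPM), and among 5 Schwann cell markers Mbp was lower (10.6 to 23.5 and 29.5 to 62.0 CPM). Of the FAP markers 1 of 8, Lum, was higher (38427 to 42102 CPM in PDGDUX, 32381 to 39159 in PDGWT). None of these markers was at 0 in either group, and their part in the member results was not tested. Of 56 other pathway genes only Thbs1 was called higher (6388 ± 1022 CPM in PDGDUX, 2724 ± 907 in PDGWT, log2 1.23 ± 0.20, adjusted p = 0.00292) and only Acta2 lower (15 ± 2.01 and 35.1 ± 16.5 CPM, log2 −1.22 ± 0.24, adjusted p = 0.0109). Over all genes 1.23% were higher and 1.77% lower.

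The difference between the DUX4 effects in FAPs and in endothelial cells was called for 6 of 46 members, beside 2.25% of all genes (0.553% positive, 1.7% negative), and all 6 were negative, meaning a more positive change in endothelial cells. The median difference was −0.37 over the members and −0.12 over all genes. For Bmp2 it was −1.38 ± 0.23 on the log2 scale (adjusted p = 0.0038), from a change of −1.34 in FAPs and 0.04 in endothelial cells. Tgfbi (−1.41 ± 0.29, adjusted p = 0.0168) changed by −0.11 in FAPs and 1.31 in endothelial cells, Bmp5 (−1.27 ± 0.30, adjusted p = 0.0352) by 0.30 and 1.57, Ltbp3 (−1.02 ± 0.24, adjusted p = 0.0389) by 0.44 and 1.45, and Tgfbr2 (−0.90 ± 0.20, adjusted p = 0.0263) by 0.30 and 1.2. Gdf6 was also called (adjusted p = 0.00602), with no fold given because CD31WT had no count. Bmp2 alone was called in every refit. Without 1 library at a time, Bmp5 and Ltbp3 each lost the call in 9 of 14 refits (adjusted p up to 0.0931 and 0.101), Tgfbr2 in 7 (up to 0.0766) and Tgfbi in 1 (0.0512, without PDGWT replicate 1), while Gdf6 lost it by limma voom alone. FAP markers moved the same way, with 4 of 8 called and all 4 negative, and their part was not tested. Abundant members not called had differences of −0.52 (Tgfb3 and Bmp4), −0.71 (Ltbp4), −0.59 (Bmp1), −0.69 (Tgfbr3), 0.40 (Eng), −1.37 (Chrd) and −1.22 (Chrdl1, adjusted p = 0.0523). For the Smads, inhibitors and targets they were −0.54 (Smad1), −0.16 (Smad4), −0.39 (Skil), 0.61 (Smad7), 0.72 (Id3) and 1.17 (Id2). Id1 had a difference of 0.51 (adjusted p = 0.375), from a change of −0.65 in FAPs and −1.16 in endothelial cells.

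By class, the counts of calls are small and stand beside shares over all genes of 17.6% and 26.6% at the 2 muscle times, 5.07% for endothelial cells and 3.0% for FAPs. Intracellular inhibitors had 0 calls of 5 in each of the 4 DUX4 comparisons by edgeR, and 5 genes are too few to set that apart from these shares. Signalling Smads had 3 calls of 6 at each muscle time and 0 of 6 in each cell type, where so few calls are near the share over all genes. Ligands had 3 calls of 12 at 2 weeks, 3 of 12 at 16 weeks, 3 of 11 in endothelial cells and 3 of 11 in FAPs, with Tgfb1 called at both muscle times and in neither cell type, and Tgfb2 called in both cell types and at neither muscle time. The difference between tissue and sorted cells was not tested. Tgfb1 stood at 56.0 ± 6.56 CPM in CD31DUX and 57.7 ± 8.51 CPM in CD31WT, and at 25.8 ± 4.73 CPM in PDGDUX and 21.7 ± 0.909 CPM in PDGWT. Receptors had 1, 2, 2 and 0 calls of 10 in the same order of comparisons. Target genes called were Id2 at 2 weeks, Id1, Id2 and Id4 at 16 weeks, Id1 and Tgfbi in endothelial cells and none in FAPs. Antagonists called were Chrdl2 at 2 weeks, Chrdl1 at 16 weeks, none in endothelial cells and both of these in FAPs. Of latent binding proteins or proteases, Ltbp1 and Ltbp3 were called at both muscle times, Ltbp3 and Bmp1 in endothelial cells and none in FAPs. On GRCm38, Tgfb1 (ENSMUSG00000002603) lies on chromosome 7 from 25687002 to 25705077, Ltbp1 (ENSMUSG00000001870) on chromosome 17 from 75005568 to 75392512, Smad3 (ENSMUSG00000032402) on chromosome 9 from 63646767 to 63757994 and Bmp2 (ENSMUSG00000027358) on chromosome 2 from 133552159 to 133562885.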

How the data were processed

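RNA was sequenced from whole muscle (500 ng, poly-A selected KAPA libraries) and from 75000 sorted cells per sample (low-input cDNA with Nextera XT tagging), as 50-base paired reads per the labels' protocols. The authors deposited estimated counts per Ensembl gene, not scaled to depth, made with Salmon 0.6.0 after CASAVA 1.8 on mm10 per the submitters' processing notes. For the annotation release, the step from transcripts to genes and the use of strand, the sources used here give nothing. Salmon shares reads between similar transcripts by a model, so values of near-identical or overlapping genes are less certain.

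Counts were rounded to whole numbers. Symbols, positions and exon lengths came from GENCODE vM21, which matched 42459 of 43035 genes and all 48 members. Muscle (18 libraries) and sorted cells (14 libraries) were fitted apart in R 4.3.3 with edgeR 4.0.16 (TMM scaling, filterByExpr with a minimum count of 10, robust quasi-likelihood F test, Benjamini-Hochberg adjustment over all genes tested, threshold 0.05). Fold changes are fitted log2 values, DUX4 over WT or PDGWT over CD31WT, ± SE, the SE being the size of the log2 change divided by the square root of F. Means are ± SD over the libraries of a group. Alternatives used limma 3.58.1 and DESeq2 1.42.0, other scalings and filters, and libraries left out. The fitting steps were also tested on simulated data. Total counts per library limit precision for members under a few CPM.

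The members and lists were chosen with earlier results of these data known. In each DUX4 comparison every called member is named, with up to 2 per class of those not called, by highest mean CPM over all libraries of the fit. Other pathway genes are named for up to 4 calls per direction by smallest p, except some that are not reported here, and for WT cells the 4 largest changes per direction with at least 5 CPM in the higher group are named.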

Additional observations from a re-analysis of the deposited data

Results flagged for a closer look

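Over 98 groups of 4 or 5 libraries examined, 5 held 1 library far from the others, and chance gives about 1 in 20. Tgfb1 was lowest in IDUX.2Weeks replicate 4, at 9.12 CPM against 11.3 to 11.8 CPM in the other 4, and Acvr1b was highest in the same library, at 44.1 CPM against 24.6 to 29.9 CPM. Gdf6 was highest in IDUX.16Weeks replicate 1, at 3.48 CPM against 0.774 to 1.14 CPM in the rest of its group. Id2 was lowest in WT.2Weeks replicate 5, at 2.35 CPM against 3.75 to 4.22 CPM. Chrdl1 was highest in PDGDUX replicate 1, at 21.4 CPM against 14.8 to 15.8 CPM.

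The DUX4 effect differed between FAPs and endothelial cells by the edgeR test of the difference for 6 members. On the log2 scale, FAPs minus endothelial cells, it was −1.38 for Bmp2, −1.27 for Bmp5, −1.02 for Ltbp3, −0.90 for Tgfbr2 and −1.41 for Tgfbi. For Gdf6 the fitted value was −8.44, whose size depends on the prior count because CD31WT had no Gdf6 count.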

How the results depend on the processing

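No direction of a called member reversed under any alternative run. Other settings (scaling, filter, tool, a term for sets, fewer groups) kept 71 of 76 member calls at 2 weeks, 87 of 95 at 16 weeks, 51 of 54 in endothelial cells, 28 of 30 in FAPs and 28 of 30 for the difference between cell types. Without 1 library at a time they kept 71 of 110, 95 of 112, 57 of 63, 28 of 35 and 58 of 84 in the same order. Where a call ended, the cause was not tested. Counts of members that moved by over 1.5 times were as follows. With limma voom, 7 were higher at 2 weeks, 4 lower in endothelial cells, 2 higher and 7 lower in FAPs, and 1 differed between times. With DESeq2, 4 were lower in endothelial cells, 3 higher and 7 lower in FAPs, and 3 differed between times. The stricter filter (minimum count 50) left 5 higher at 16 weeks and 4 lower in endothelial cells, and no filter gave 3 lower at 16 weeks and 2 higher in FAPs. Leaving out 1 library gave 2 to 6 members higher and 2 to 9 lower at 2 weeks, 6 to 8 and 3 to 6 at 16 weeks, 7 to 10 and 1 to 3 in endothelial cells, and 0 to 2 and 3 to 5 in FAPs. It gave 0 to 0 differing between times, 2 to 8 between cell types, and 20 to 22 higher and 7 to 9 lower in WT FAPs. Over all genes, 2717 calls at 2 weeks became 4328 with limma voom. The 46 between times became 265 with limma voom, 466 with DESeq2, 137 with a term for sets and 19 with no filter. In sorted cells DESeq2 gave 1457 calls in endothelial cells against 863, 1027 in FAPs against 510 and 824 between cell types against 383. No paired analysis was possible because replicate numbers were given in accession order and no label links libraries across groups. Depth limits Gdf6, Gdf5, Chrdl2 and Smad9, which stood at few counts in at least 1 group.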
